A study of Homo sapiens with 4 samples.

Results

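The 10 genes examined here encode ATP-binding cassette (ABC) transporters that pump drugs, drug conjugates or related molecules across membranes. They are ABCB1, ABCB6, ABCC1, ABCC2, ABCC3, ABCC4, ABCC5, ABCC6, ABCC10 and ABCG2. They were chosen by gene symbol as known transporters of this kind, and all 10 were found among the 23228 genes of the count tables. Total RNA was sequenced from ES2 cells, an established human ovarian cancer cell line, after 24 h with vehicle (2 samples) or with 100 μM liquiritigenin (Liq, 2 samples). Liq is a plant flavanone that the study uses as an agonist of estrogen receptor β (ERβ). All 4 samples were grown without phenol red in charcoal-stripped serum, and no gene was altered in either group. The labels do not say whether the 2 samples of a group came from separate cultures, so the p-values measure the spread between these samples, which may be technical. They come from 1 cell line, treated at 1 dose and 1 time.

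ABC transporters bind and hydrolyse ATP on their nucleotide-binding domains and use that energy to move a substrate out of the cell or into an organelle. P-glycoprotein (ABCB1), the breast cancer resistance protein (ABCG2) and several multidrug resistance proteins (MRPs, the ABCC genes) were first known for making tumor cells resistant to chemotherapy. ABCB1 and ABCC10 carry taxanes such as paclitaxel, while many MRPs export organic anions and molecules that have been conjugated to glutathione, glucuronic acid or sulfate. RNA levels alone were measured in these samples, so nothing below describes protein or transport activity. In RNA from whole cultures, a change in every cell and a change in the share of cells that express a gene cannot be told apart.

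Each sample had between 34573053 and 48933893 reads on genes, and 3 counts corresponded to 0.0613 to 0.0868 CPM (counts scaled to a common library size). The CPM given here are after TMM scaling, and Liq was compared with vehicle over 13546 sufficiently expressed genes by edgeR's quasi-likelihood test with Benjamini-Hochberg adjustment. A gene is said to have risen or fallen where its adjusted p-value was under 0.05. The count ratio between samples of a group varied more than sampling noise allows (chi-square per degree of freedom of 5.56 and 9.63, against 49.8 to 61.0 between groups), so no sample was a copy of another. Of the markers used to check the label, the mesenchymal gene VIM averaged 7479 ± 178 CPM over the vehicle samples (SD, n = 2) and the keratin gene KRT18 198 ± 8.9 CPM, whereas CDH1 had 0 counts in every sample and EPCAM and KRT19 had at most 3. The leukocyte genes PTPRC and CD3E had at most 1 count in any sample. Of the 6 tested markers of the ovarian carcinoma and epithelial or mesenchymal list, 1 rose and 4 fell, VIM and KRT18 among them. This is 83.3% of the markers, against 24% of all tested genes. The summed level of the list was 7688 to 7953 CPM in vehicle and 6200 to 6812 CPM in Liq. Its part in the results for the transporters was not tested.

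The antioxidant response element bound by NRF2 and the xenobiotic response element bound by the aryl hydrocarbon receptor are inducible elements near genes of drug disposal. The estrogen response element was searched as well, and elements of other drug-sensing receptors were not. RefSeq start sites (GRCh38.p14) were available for 8 of the 10 genes, with 15 start sites in all. None was available for ABCC1 or ABCC3, so neither was searched. The 300 bases from 250 before to 50 after each start site were searched on both strands. The promoters of ABCC2 and ABCB6 are shown because both transcripts rose with Liq, as described below. Capitals mark every match to the antioxidant response element core (TGACNNNGC), the xenobiotic response element core (GCGTG), the palindromic estrogen response element, the GC box (GGGCGG), the CCAAT box (CCAAT) or the TATA box (TATAAA). The ABCC2 window is chr10:99782390-99782689 on the plus strand and the ABCB6 window is chr2:219218909-219219208 on the minus strand, each read 5′ to 3′ along its gene.
ABCC2: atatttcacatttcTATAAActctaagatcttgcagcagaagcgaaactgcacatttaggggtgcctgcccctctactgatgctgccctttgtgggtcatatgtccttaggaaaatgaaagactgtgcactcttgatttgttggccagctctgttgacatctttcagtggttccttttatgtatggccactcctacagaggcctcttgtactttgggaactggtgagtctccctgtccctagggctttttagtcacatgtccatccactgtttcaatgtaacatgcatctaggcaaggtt
ABCB6: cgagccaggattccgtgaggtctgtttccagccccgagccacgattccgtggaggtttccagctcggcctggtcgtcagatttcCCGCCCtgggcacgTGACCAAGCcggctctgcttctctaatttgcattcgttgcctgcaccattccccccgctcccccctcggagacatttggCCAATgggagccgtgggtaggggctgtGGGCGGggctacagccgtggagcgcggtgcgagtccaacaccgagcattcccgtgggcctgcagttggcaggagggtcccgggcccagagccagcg

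The ABCB6 window held an antioxidant response element core, tgaccaagc, at positions -152 to -144 from the start site, and also 2 GC boxes and a CCAAT box. The ABCC2 window held a TATA box match alone, at positions -236 to -231 from its start site. The antioxidant core was also found in windows of genes that did not pass the test. It read tgacgttgc at 1 of the ABCC10 start sites, gccgcgtca (the opposite strand) at ABCC4 and tgactgggc at 1 of the ABCG2 start sites. In all, 4 of the 15 windows held it, against 13.3% of 35116 RefSeq promoters of the same length. The xenobiotic core was found in 7 of the 15 windows and 36.5% of all promoters, and the estrogen element in 0 of the 15 and 0.057% of all promoters. Some ABCG2 windows overlap and share the same xenobiotic cores, so the 15 windows are not independent. No matches overlapped each other in the ABCC2 and ABCB6 windows, and a match shows only that these bases are in the window.

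Of the 10 transporters, 3 rose with Liq, 0 fell, 6 did not pass the test and 1, ABCC6, had too few reads to be tested. At an unadjusted p-value under 0.05 by edgeR, 6 were higher and 0 lower (18.8% and 17.3% of all tested genes). At an adjusted p-value under 0.05, the DESeq2 Wald test also called 0 lower. The genes that rose were ABCC3, ABCC2 and ABCB6, and the first 2 changed by more than 1.5-fold, the size the study required. Over all tested genes, 12.6% rose and 11.3% fell, and 6.45% changed by at least 1.5-fold in either direction (4.29% upward and 2.16% downward). Both Liq samples were higher than both vehicle samples for 8 of the 10 transporters, including ABCC6 at its low counts. In either direction, the groups did not overlap in 61.7% of all tested genes, and in 7 of the 9 tested transporters. The share for the upward direction alone was not taken over all genes. Among the tested transporters 8 of 9 had a log2 fold change above 0, with a median of 0.21, against a median of 0.01 over all tested genes, of which 51% were above 0. Without Liq replicate 2 the number that rose was 6, because ABCC1, ABCC5 and ABCC10 then passed, and without vehicle replicate 1 it was 2, because ABCB6 did not.

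**Figure D1:**
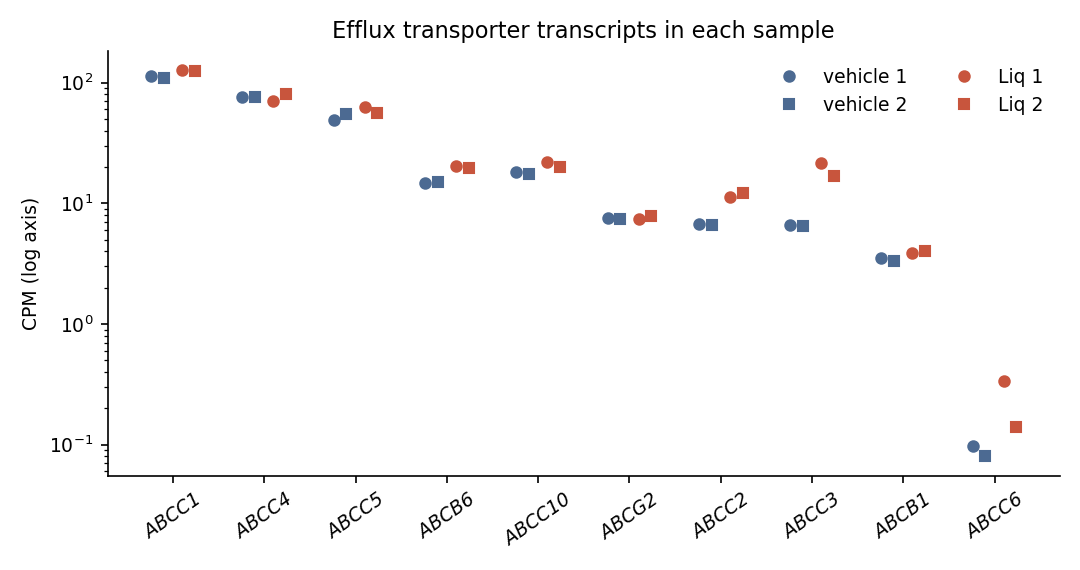
CPM of each transporter (log axis) in the 2 vehicle samples (blue) and the 2 Liq samples (red), with circles for replicate 1, squares for replicate 2 and genes in the order of their length-scaled level in vehicle. ABCC3 moved from 6.64 and 6.49 CPM to 21.5 and 16.7 CPM, while the points of ABCG2 and ABCC4 overlap.

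ABCC3 encodes MRP3, an exporter of glucuronide conjugates and bile salts on the basolateral side of epithelial cells, and it changed most of the 10. Its counts were 273 and 243 with vehicle and 763 and 839 with Liq, which is 6.64 and 6.49 CPM against 21.5 and 16.7 CPM. Both Liq samples were far above both vehicle samples, and Liq replicate 1 was the higher of the 2. Mean levels were 6.57 ± 0.11 CPM and 19.1 ± 3.4 CPM (SD, n = 2), giving a log2 fold change of 1.53 (standard error 0.12, edgeR adjusted p = 5.67e-10) or 2.89-fold (95% interval 2.43 to 3.44). By the size of this increase ABCC3 was gene 60 of the 13546 tested, and by its p-value gene 39. Leaving out 1 sample at a time moved the log2 fold change between 1.35 and 1.71. The gene lies on chromosome 17 from 48712138 to 48769614 (GRCh37, plus strand).

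ABCC2 encodes MRP2, which exports glutathione and glucuronide conjugates on the apical side of liver, kidney and gut epithelium and also carries cisplatin conjugates. Its counts were 280 and 250 in vehicle and 404 and 614 in Liq, or 6.81 and 6.68 CPM against 11.4 and 12.2 CPM. The groups did not overlap, and the samples within each group were close to each other. ABCC2 rose by 1.75-fold (95% interval 1.49 to 2.07), a log2 fold change of 0.81 (standard error 0.12, edgeR adjusted p = 1.00e-05). It was gene 468 by the size of its increase. ABCC2 and ABCC3 stood at nearly the same CPM in vehicle, and the intervals of their log2 fold changes (0.57 to 1.05 for ABCC2 and 1.28 to 1.78 for ABCC3) did not overlap. ABCC2 lies on chromosome 10 from 101542397 to 101612351 (GRCh37, plus strand). The hepatocyte gene ALB, checked because ABCC2, ABCC6 and ABCG2 are high in liver, had 1 and 1 counts in vehicle and 6 and 9 in Liq, and APOA1 had at most 1. The summed level of this 2-gene list was 0.0267 to 0.0486 CPM in vehicle and 0.197 to 0.199 CPM in Liq, and its part in the result was not tested.

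ABCB6 encodes a transporter of porphyrins and heme found in mitochondrial, endosomal and plasma membranes. It had 607 and 566 counts in vehicle and 732 and 978 in Liq, or 14.8 and 15.1 CPM against 20.6 and 19.5 CPM. Every Liq sample was above every vehicle sample, with a gap several times the spread within a group. The increase was 1.34-fold (95% interval 1.16 to 1.54), a log2 fold change of 0.42 (standard error 0.10, edgeR adjusted p = 0.00269), which is under 1.5-fold. Without vehicle replicate 1 the log2 fold change was 0.40 and did not pass (edgeR adjusted p = 0.0574). ABCB6 lies on chromosome 2 from 220074494 to 220083716 (GRCh37, minus strand), and 2841 of its exon bases also belong to another annotated protein-coding gene on the same strand that has no row in the count tables.

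**Figure D2:**
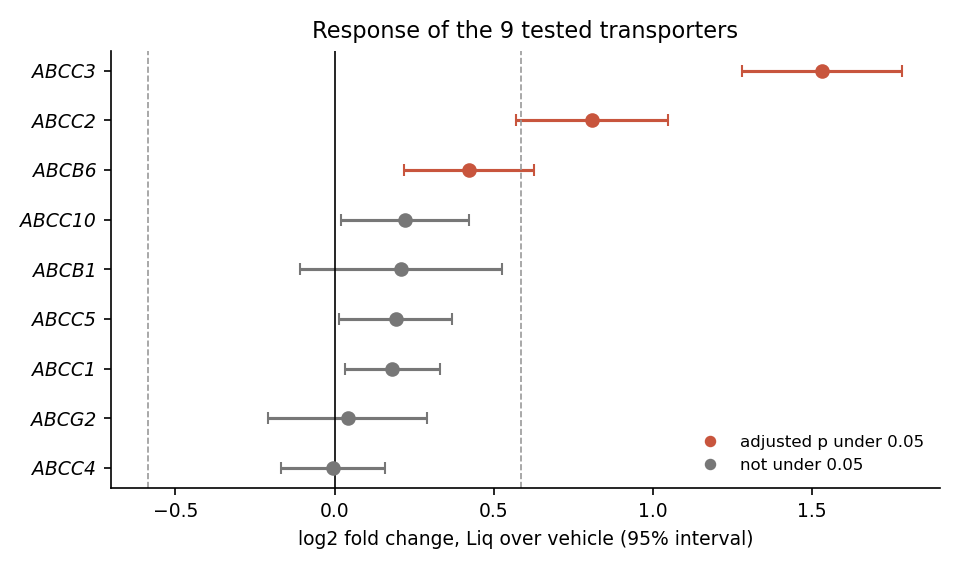
Log2 fold change of Liq over vehicle for the 9 tested transporters with 95% intervals, red where the adjusted p-value was under 0.05 and grey otherwise. Dashed lines mark 1.5-fold in each direction, and ABCC3 is the gene whose whole interval lies beyond them, at 1.28 to 1.78.

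The most abundant MRP gene, ABCC1, encodes MRP1, the exporter of glutathione conjugates and of leukotriene C4 that most cell types express. It had 4633 and 4091 counts in vehicle and 4528 and 6242 in Liq, or 113 and 109 CPM against 127 and 124 CPM. The groups did not overlap, but the difference was small, with a log2 fold change of 0.18 (standard error 0.07, 95% interval 0.03 to 0.33) that did not pass the test (edgeR adjusted p = 0.0723). Without Liq replicate 2 it was 0.20 and passed (edgeR adjusted p = 0.0496). An upper-quartile scaling and offsets along the expression level gave 0.21 and 0.24, which also passed (edgeR adjusted p = 0.0380 and 0.0202). ABCC1 lies on chromosome 16 from 16042995 to 16237114 (GRCh37, plus strand), 6.31 kb from ABCC6.

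ABCC5, which encodes an exporter of cyclic nucleotides and nucleotide analogs, had 48.8 and 55.4 CPM in vehicle and 62.6 and 56.4 CPM in Liq. Vehicle replicate 2 and Liq replicate 2 were almost level, and the log2 fold change of 0.19 (standard error 0.09, 95% interval 0.02 to 0.37) did not pass (edgeR adjusted p = 0.106). ABCC10, the gene of MRP7, had 18.3 and 17.7 CPM in vehicle and 22.0 and 20.0 CPM in Liq. Its groups were separate, with a log2 fold change of 0.22 (standard error 0.10, 95% interval 0.02 to 0.42) that did not pass either (edgeR adjusted p = 0.104). Both genes passed when Liq replicate 2 was left out, with log2 fold changes of 0.27 for ABCC5 (edgeR adjusted p = 0.0124) and 0.29 for ABCC10 (edgeR adjusted p = 0.0378). The value of ABCC5 was 0.10 without vehicle replicate 1 and 0.12 without Liq replicate 1. ABCC10 shares 76 exon bases with DLK2 on the opposite strand, and the strand setting of the counting is not given in the sources used here. DLK2 had 14 to 29 counts against 662 to 1006 for ABCC10.

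ABCC4 encodes MRP4, an exporter of cyclic AMP, prostaglandins and urate, and it was the second most abundant of the 10. It had 3108 and 2856 counts in vehicle and 2523 and 4024 in Liq, or 75.6 and 76.3 CPM against 70.9 and 80.2 CPM. The vehicle samples lay between the Liq samples, and the log2 fold change was -0.01 (standard error 0.08, edgeR adjusted p = 0.967). Its 95% interval of -0.17 to 0.16 excludes a change of 1.5-fold in either direction, and the sign of this small value was positive in 3 of the alternatives tried. ABCC4 lies on chromosome 13 from 95672089 to 95953729 (GRCh37, minus strand).

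The pumps best known from drug resistance in the clinic, ABCB1 and ABCG2, had low levels. ABCB1 had 144 and 125 counts in vehicle and 137 and 203 in Liq, or 3.50 and 3.34 CPM against 3.85 and 4.04 CPM. Both Liq values were above both vehicle values, but the log2 fold change of 0.21 (standard error 0.15) did not pass (edgeR adjusted p = 0.350), and its 95% interval reached from -0.11 to 0.53. With offsets along the expression level it was 0.060 (edgeR adjusted p = 0.823). ABCG2 had 7.52 and 7.45 CPM in vehicle and 7.48 and 7.89 CPM in Liq. These values overlapped, with a log2 fold change of 0.04 (standard error 0.12, 95% interval -0.21 to 0.29, edgeR adjusted p = 0.844). The sign of the ABCG2 value was negative with offsets along the expression level and without Liq replicate 2. Increases of 1.44-fold for ABCB1 and 1.22-fold for ABCG2 are the largest within their intervals. ABCB1 lies on chromosome 7 from 87132333 to 87342639 and ABCG2 on chromosome 4 from 89011302 to 89152780 (GRCh37, both minus strand).

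ABCC6, whose product acts mainly in liver and kidney and is lost in pseudoxanthoma elasticum, was close to the smallest level the data can show. It had 4 and 3 counts in vehicle and 12 and 7 in Liq, or 0.0973 and 0.0801 CPM against 0.337 and 0.139 CPM, and was not tested. Summed over samples, these 7 and 19 counts gave a ratio of 2.49 per unit of depth, with an exact 95% interval of 1.00 to 6.999 that covers counting error only. ABCC6 has partial copies in the genome, and reads that fit more than 1 place were left out of the counts, so its level is uncertain. The copies ABCC6P1 and ABCC6P2 had 0 or 1 and 2 to 8 counts per sample. ABCC6 lies on chromosome 16 from 16243422 to 16317379 (GRCh37, minus strand).

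**Figure D3:**
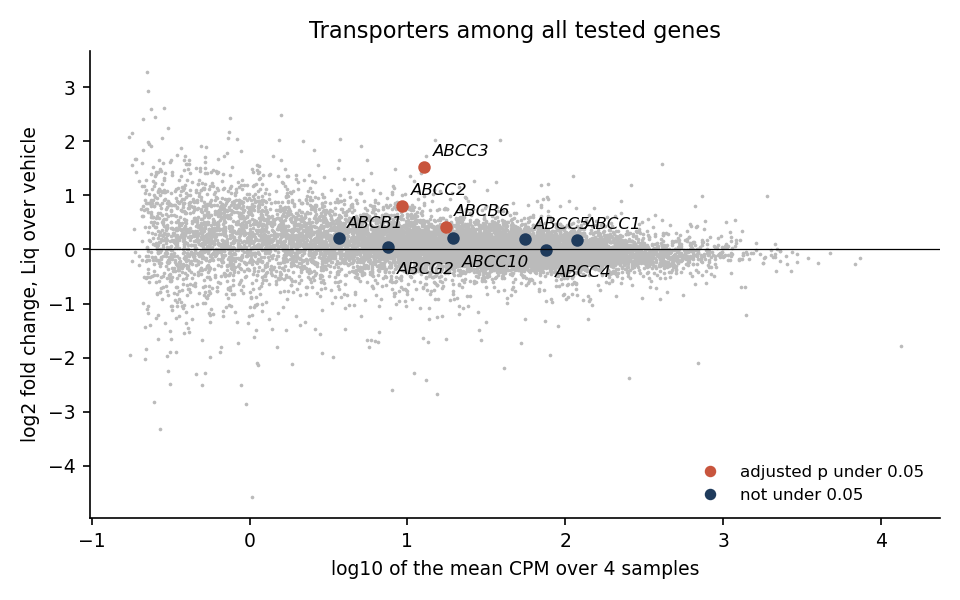
Log2 fold change of Liq over vehicle against the log10 of the mean CPM for all 13546 tested genes (grey), with the 9 tested transporters named, red where the adjusted p-value was under 0.05 and dark blue otherwise. ABCC3 lies at 1.53 above most genes of its level, while ABCC1, ABCC4 and ABCC5 lie in the dense band around 0.

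To compare the transporters with each other, levels were divided by the length of their merged exons (RPKM). In vehicle the order was ABCC1 at 12.7 ± 0.3 RPKM (SD, n = 2), ABCC4 at 8.80 ± 0.06 RPKM, ABCC5 at 4.58 ± 0.41 RPKM, ABCB6 at 2.87 ± 0.05 RPKM and ABCC10 at 2.22 ± 0.05 RPKM. ABCG2 followed at 1.34 RPKM, ABCC2 at 0.861 RPKM, ABCC3 at 0.683 RPKM, ABCB1 at 0.533 RPKM and ABCC6 at 0.0128 RPKM. On merged exons, no neighbours in this order overlapped between their vehicle samples. With Liq the first 5 places were the same, but ABCC3, at 1.99 ± 0.35 RPKM, and ABCC2, at 1.51 ± 0.08 RPKM, stood above ABCG2, at 1.37 ± 0.05 RPKM, so that ABCC3 went from place 8 to place 6. The orders in vehicle and Liq were the same with the length of the canonical transcript. On that length the levels of ABCC2 and ABCC3 in vehicle were 1.16 ± 0.02 and 1.15 ± 0.02 RPKM (SD, n = 2). Their vehicle samples overlapped, so the order of these 2 genes depends on the length used.

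The summed length-scaled level of the 10 transporters was 34.5 and 34.7 RPKM in the vehicle samples and 40.6 and 40.1 RPKM in the Liq samples, a ratio of 1.17 between the means. ABCC1 took 36.7% ± 0.9 of this sum in vehicle and 35.7% ± 0.2 in Liq (SD, n = 2), and ABCC4 took 25.4% ± 0.06 and 21.7% ± 2.1. The share of ABCC3 went from 1.97% ± 0.04 to 4.91% ± 0.81 and that of ABCC2 from 2.49% ± 0.04 to 3.73% ± 0.23. Of the difference of 5.75 RPKM between the groups, ABCC1 made up 29.6%, ABCC3 22.6%, ABCB6 17.01%, ABCC5 11.4% and ABCC2 11.2%. Over merged exons, ABCC1, with a small relative change and a high level, thus added more RPKM than ABCC3, with its large relative change. On the canonical transcript length the 2 differences were nearly equal. ABCC1 went from 17.1 to 19.3 RPKM there, and ABCC3 from 1.15 to 3.35 RPKM. The ABCC1 part rests on a difference that did not pass the test.

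**Figure D4:**
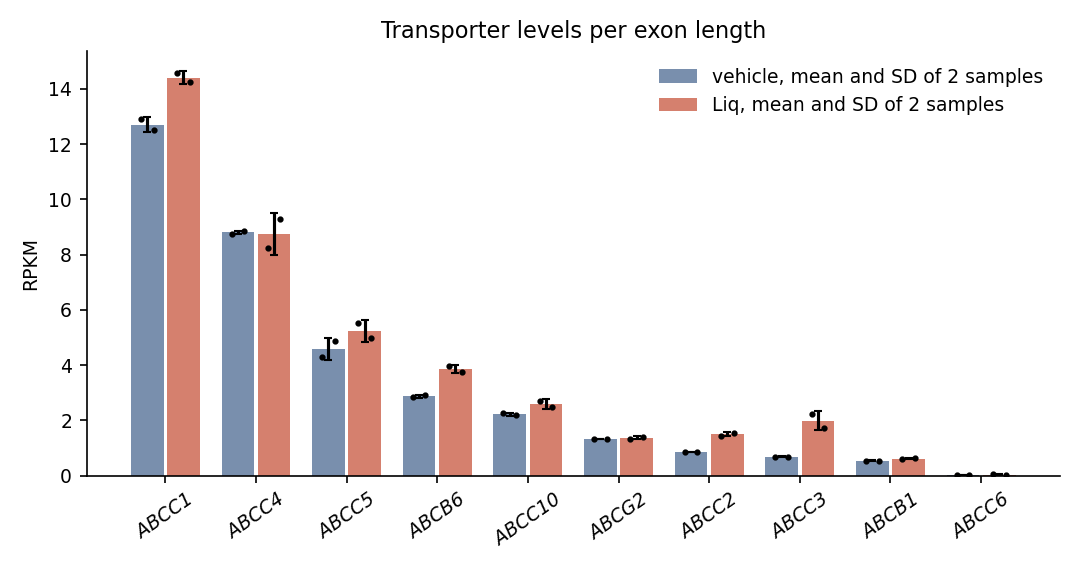
Level of each transporter as RPKM over merged exons in vehicle (blue) and Liq (red), with bars for the mean, whiskers for the SD and black points for the 2 samples. ABCC1 is highest at 12.7 RPKM in vehicle and 14.4 RPKM in Liq, and ABCC3 rises from 0.683 to 1.99 RPKM.

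The genes beside the transporters on their chromosomes were also examined, without a test of whole regions. The nearest tested genes that do not overlap them made 18 different genes after the transporters themselves were set aside, of which 3 passed the test: DZIP1 beyond ABCC4 (log2 fold change 0.37), PKD2 beside ABCG2 (0.31) and EIF2B5 beyond ABCC5 (-0.23). These are neighbours of transporters that did not pass. Over all tested genes, 24% passed in either direction. Beside the 3 transporters that rose, 0 of 6 neighbours passed, with log2 fold changes from -0.06 to 0.22 (lowest edgeR adjusted p = 0.0809), and 1 of them, CUTC, had an unadjusted p-value under 0.05. ANKRD40, which lies 0.945 kb past the end of ABCC3, averaged 128 ± 0.67 CPM with vehicle and 123 ± 5.8 CPM with Liq (SD, n = 2). ATG9A and ZFAND2B, 0.386 and 0.121 kb from the ends of ABCB6, had log2 fold changes of 0.08 and 0.03. The 3 genes whose 4 values followed those of ABCC3 most closely, out of 12224 with a mean of at least 1 CPM, were ST6GALNAC2, CORO6 and RABL2A, at Euclidean distances of 0.12, 0.14 and 0.15 between centred log2 CPM values. They had log2 fold changes of 1.48, 1.65 and 1.43, which had to lie near that of ABCC3 because these same values picked them. Their levels were low, with vehicle means of 0.58, 0.76 and 0.56 CPM, and RABL2A is uncertain because a near-identical copy exists.

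The other 38 human ABC genes were written as a list for comparison, and 22 of them were tested. Of these, 3 rose, 2 fell and 17 did not pass, with a median log2 fold change of 0.07. The share that passed was 22.7%, against 24% of all tested genes. ABCA7, a lipid transporter, had a log2 fold change of 1.04 (standard error 0.16, edgeR adjusted p = 2.16e-05), from 3.60 and 2.96 CPM to 7.79 and 5.90 CPM, and was the single gene of this list to change by 1.5-fold. ABCB8 of the mitochondrial inner membrane (0.29) and ABCD4, which takes part in vitamin B12 transport from lysosomes (0.28), rose, while ABCE1, a ribosome recycling factor with no membrane domain, had a log2 fold change of -0.23, and ABCC9, a regulatory subunit of potassium channels, one of -0.48. ABCB4, the phospholipid pump beside ABCB1 on chromosome 7, had 4.33 and 3.66 CPM in vehicle and 4.95 and 4.96 CPM in Liq and did not pass (log2 fold change 0.31, edgeR adjusted p = 0.132). Without vehicle replicate 1, and likewise without vehicle replicate 2, 1 gene of this list rose and 0 fell. Upper-quartile scaling gave 5 that rose and 0 that fell, so neither ABCE1 nor ABCC9 passed there, offsets along the expression level gave 3 and 1, and the DESeq2 Wald test gave 1 and 0.

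Other routes by which drugs leave or enter cells were examined in the same fit. Of 5 tested genes for efflux outside the ABC family, 1 rose and 0 fell (20% passed, against 24% of all tested genes, median log2 fold change -0.01). This was the copper and platinum exporter ATP7B, at 15.1 and 15.7 CPM in vehicle and 20.2 and 17.3 CPM in Liq (log2 fold change 0.28, SE 0.10, edgeR adjusted p = 0.0478), and it did not pass when either vehicle sample or Liq replicate 1 was left out, with DESeq2 size factors, with offsets along the expression level or by the DESeq2 Wald test. The vault protein gene MVP averaged 110 ± 6.5 CPM with vehicle and 110 ± 5.2 CPM with Liq (SD, n = 2). Of 13 tested uptake carriers, 3 rose and 3 fell (46.2% passed, against 24% of all tested genes, median 0.04). Among them, 2 of those that rose and 1 of those that fell changed by 1.5-fold. The nucleoside carrier SLC29A2 rose from 1.48 and 1.58 CPM to 4.22 and 3.15 CPM (log2 fold change 1.25, SE 0.20, edgeR adjusted p = 3.40e-05). The organic anion carrier SLCO4A1 (log2 fold change -0.43) and the organic cation carrier SLC22A3 (-0.38) fell, each by less than 1.5-fold, and SLCO3A1 rose (0.66). The copper carrier SLC31A1, through which cisplatin can enter, had 41.2 and 40.9 CPM in vehicle and 44.8 and 49.5 CPM in Liq and did not pass (log2 fold change 0.20, edgeR adjusted p = 0.0874). When either vehicle sample was left out, 1 carrier rose and 1 fell. Offsets along the expression level gave 1 that rose and 3 that fell, and the DESeq2 Wald test gave 1 and 2.

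Of 15 tested genes for transcription factors that are known to act on efflux genes, and their partners, 6 rose and 2 fell (median log2 fold change 0.07). In this list 53.3% passed, against 24% of all tested genes. AHR, the aryl hydrocarbon receptor, rose from 20.1 and 18.8 CPM to 30.2 and 34.9 CPM (log2 fold change 0.75, SE 0.10, edgeR adjusted p = 2.54e-06). PPARA rose (0.43) and NFKB1 fell (-0.38). NFE2L2, which encodes NRF2, fell from 143 and 151 CPM to 119 and 125 CPM, a log2 fold change of -0.27 (standard error 0.07, edgeR adjusted p = 0.00833). Its inhibitor gene KEAP1 did not pass, at 51.1 and 50.6 CPM in vehicle and 54.1 and 51.9 CPM in Liq. NR1I2 and NR1I3, the genes of the xenobiotic receptors PXR and CAR, had at most 1 count per sample, and ESR2, the gene of ERβ, had 4 and 7 counts in vehicle and 5 and 14 in Liq, too few to be tested. Without vehicle replicate 1, and likewise without vehicle replicate 2, 2 of these genes rose and 1 fell, and without Liq replicate 1, 5 fell.

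MRP2 and MRP3 export conjugates, so enzymes that make glutathione or attach it and other groups were listed too. Of 19 tested genes, 7 rose and 1 fell (median log2 fold change 0.14), and 3 of those that rose changed by 1.5-fold. Altogether 42.1% of them passed, against 24% of all tested genes. GCLM, the modifier subunit of the rate-limiting enzyme of glutathione synthesis, went from 50.9 and 56.0 CPM to 94.3 and 110 CPM, a log2 fold change of 0.94 (standard error 0.09, edgeR adjusted p = 4.60e-09). The microsomal glutathione transferase MGST1 (0.62) and glutathione reductase GSR (0.53) rose, and GSTO1 fell (-0.50). UGT1A1, UGT1A6 and UGT2B7, which attach glucuronic acid, had 0 counts in every sample, although UGT1A genes share exons and reads on shared exons may have been left out as ambiguous. Of the 15 genes of heme synthesis, breakdown and transport, the pathway of ABCB6, 4 rose and 2 fell (40% passed, median 0.16). HMOX1, which breaks heme down, rose from 9.58 and 9.03 CPM to 19.1 and 20.9 CPM (log2 fold change 1.11, SE 0.11, edgeR adjusted p = 1.23e-08). FECH (0.41) and UROS (0.38) of heme synthesis rose and ALAS1, its first enzyme, fell (-0.35). Without Liq replicate 2, 7 genes of this list rose and 1 fell, without vehicle replicate 1, 0 fell, and without vehicle replicate 2, 1 fell. Offsets along the expression level also gave 1 that fell.

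**Figure D5:**
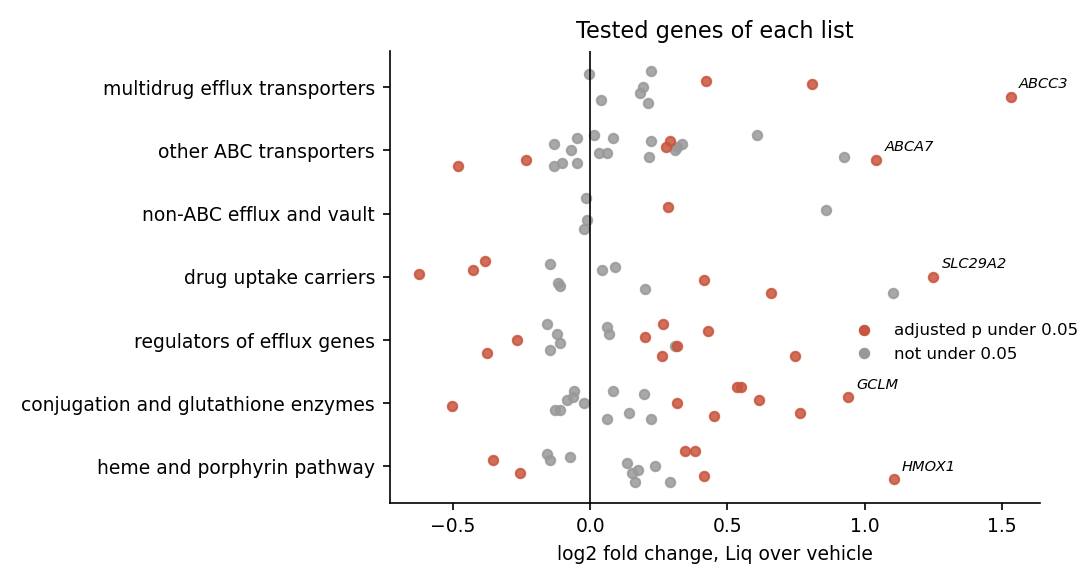
Log2 fold change of Liq over vehicle for each tested gene of the 10 efflux transporters and of the 6 lists beside them, red where the adjusted p-value was under 0.05 and grey otherwise (vertical scatter within a row carries no meaning). Genes that passed with at least 0.9 are named, and ABCC3 lies farthest to the right at 1.53.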

How the data were processed

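RNA from vehicle- and Liq-treated ES2 cells was sequenced with 100-base single-end reads. According to the submitters' processing notes the authors used bcl2fastq 2.17.1.14, TopHat2 2.0.8b and HTSeq on hg19 (GRCh37), and deposited raw read counts per gene symbol, neither normalized nor pooled. Rows that tally unassigned reads were left out of library sizes and tests, so close copies are undercounted. These rows made up 44.4% to 45.9% of the sum of all rows, mostly from alignment to more than 1 place. That is a share of tallied entries and may differ from the share of reads. Dose and thresholds come from the methods of the paper.

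The model was fitted to these counts by edgeR 4.0.16 (R 4.3.3): filterByExpr (minimum count 10, minimum total 15), TMM, glmQLFit and glmQLFTest without a replicate block, Benjamini-Hochberg adjustment over all 13546 tested genes. The standard error is the log2 fold change divided by the square root of F. With 2 against 2 samples an exact permutation test of 1 gene cannot go below 0.3333. The fits were tested on simulated data. Coordinates and exon lengths are GENCODE's (GRCh37), and promoters are RefSeq's (GRCh38.p14). Alternatives were other scalings, filters, DESeq2 1.42.0, a replicate block and leaving out each sample. Canonical transcript lengths were added after seeing the data.

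All 10 transporters were named, with up to 4 genes of smallest adjusted p-value per list, others where a transporter's reading needs them, and the 3 genes most like the top transporter. A few further genes (ABCC9, NFE2L2, MVP, SLC31A1, KEAP1, NR1I2, NR1I3, ESR2, the UGT genes) and the neighbours were chosen for their role or place, after their values were seen. The transporters and the lists were chosen with earlier results of these data known. Proteins were not analysed here. Single values of a few listed genes are not reported here.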

Additional observations from a re-analysis of the deposited data

How the results depend on the processing

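The increases of ABCC3 and ABCC2 passed in every alternative run, with log2 fold changes of 1.35 to 1.71 and 0.73 to 0.86. The number of transporters that rose (3) was 6 with a replicate block, 6 at the unadjusted p-value and 2 to 6 when a sample was left out, and 1 transporter passed at a fold of at least 2. None fell under any setting by edgeR or DESeq2, and 0 fell at the unadjusted p-value of edgeR. The replicate block, which pairs samples that share only a number (correlation of their deviations 0.0483 across genes), let ABCC1 (0.18), ABCC5 (0.19) and ABCC10 (0.22) pass. ABCC1 also passed with upper-quartile normalization (0.21) and with loess offsets (0.24, span 0.3). Leaving out samples gave log2 fold changes of 0.38 to 0.46 for ABCB6, which did not pass without vehicle replicate 1, 0.16 to 0.20 for ABCC1, 0.10 to 0.29 for ABCC5 and 0.16 to 0.29 for ABCC10. The small value of ABCC4 turned positive with upper-quartile normalization (0.021) and loess offsets (0.029) and ranged from -0.099 to 0.078 when a sample was left out, and that of ABCG2 turned negative with loess offsets (-0.054) and ranged from -0.0017 to 0.075. Over all genes, 1712 rose and 1533 fell. Under the alternatives 1086 rose by the DESeq2 Wald test, 2321 with the replicate block, 2553 at the unadjusted p-value and 805 to 1966 when a sample was left out, while 2474 fell with the replicate block, 2337 at the unadjusted p-value and 608 to 1814 when a sample was left out. Over the 6 lists, 24 genes rose and 10 fell, and 13 to 26 and 3 to 12 when a sample was left out. Canonical lengths gave ABCC1 32.6% and 31.5% of the summed level in vehicle and Liq, and ABCC3 2.20% in vehicle. The cause of these differences was not tested. At this depth ABCC6 and ESR2 were too low to test, and without the filter on low counts ABCC6 had a log2 fold change of 1.30 (standard error 0.79, edgeR adjusted p = 0.277).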
